A study of Homo sapiens with 36 samples.

Results

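The libraries described here came from MCF-10A ER-Src cells, an untransformed human mammary epithelial line, in which the transcriptional co-activator YAP was knocked down with small interfering RNA (siRNA). The groups compared were YAPi_ETH (siRNA against YAP) and Ctrli_ETH (control siRNA), each with 2 RNA-seq libraries, which made 4 of the 36 libraries of the series. They were chosen by their sample titles, which give the siRNA and the treatment. All 4 carry ER-Src, the v-Src oncoprotein joined to the ligand-binding domain of the estrogen receptor, and all 4 were kept in ethanol (ETH), the vehicle in which tamoxifen (TAM) is given, so that v-Src was not switched on by the drug. Medium was the same throughout and held EGF, hydrocortisone, cholera toxin, insulin and charcoal-stripped serum. Cells had been transfected 24 h before treatment. The length of treatment of these libraries, and whether the ETH cells received AZD0530 (a Src inhibitor named in the treatment protocol), are not given in the sources used here. Nothing states that replicates were separate cultures, so the p-values measure only the spread between these libraries, which may be technical. As references, 2 libraries with siRNA against TAZ (TAZi_ETH), 2 each against STAT3 and JUNB (STAT3i_ETH, JUNBi_ETH) and the 4 TAM libraries of the same siRNAs (YAPi_TAM, Ctrli_TAM) were used.

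YAP, encoded by YAP1, and its paralog TAZ, encoded by WWTR1, have no DNA-binding domain. They enter the nucleus when the Hippo kinases MST and LATS are inactive and are then carried to DNA by TEAD proteins and other factors, where they activate genes for growth, adhesion and the cytoskeleton. In stratified epithelia YAP is mainly nuclear in basal cells and is known for keeping such cells proliferative and holding back their terminal differentiation. MCF-10A cells have a basal character, with keratins 5, 14 and 17, and depend on EGF for growth.

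The oligonucleotide list of the study gives a commercial siRNA pool and also 1 YAP1 siRNA sequence. Which of them went into these libraries is not stated, so the sequence is shown only for where its target lies.
siYAP1: gacaucuucuggucagaga
This run of 19 bases (RNA, sense strand) matched YAP1 at chr11:102114365-102114383 (GRCh38, + strand), in coding exon 2 of 9 of the canonical transcript, and it matched 8 YAP1 transcripts of GENCODE 44 in all. It also matched 1 transcript of the processed pseudogene YAP1P1. The gene itself spans chr11:102110447-102233424 (GRCh38, ENSG00000137693.13).

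Total expected counts were 11942413 and 10848740 in Ctrli_ETH and 19161700 and 10090786 in YAPi_ETH. The Ctrli_ETH libraries stood apart from most of the other ETH libraries: 1.01 and 1.38% of their counts fell on ribosomal RNA (rRNA) genes, against 0.0124 and 0.00361% in YAPi_ETH, 0.178 and 0.0319% in TAZi_ETH, 0.107 and 0.0458% in JUNBi_ETH, and 0.941 and 0.398% in STAT3i_ETH. Genes that were high wherever this share was high are given below with all ETH libraries, and the comparison was therefore also made with the 6 TAZi_ETH, STAT3i_ETH and JUNBi_ETH libraries in place of Ctrli_ETH. The effective gene lengths that RSEM used were longer in YAPi_ETH, with a median log2 ratio of 0.12 over the genes tested, so TPM, which RSEM scales by that length, were used only to check cell identity below and for no direction of change. Values below are normalised counts (expected counts divided by size factors over the 20 ER-Src libraries) and compare a gene between libraries, not genes with each other. Each group's pair of values is given in the order of replicates 1 and 2, and where values are set against each other those of Ctrli_ETH come first. Epithelial identity was checked by markers. Summed TPM of the 9 basal markers ran from 2625 to 3409 in the 4 libraries, all 9 being detected, whereas the 4 endothelial and 3 adipocyte markers each summed to no more than 1.1 TPM. The 7 fibroblast markers summed to 61.8 and 59 TPM in Ctrli_ETH and 183 and 148 TPM in YAPi_ETH, most of it DCN, and the 5 immune markers to 4.76 and 4.46 against 9.91 and 11.48 TPM, with PTPRC and CD3E at 0. The 5 pan-epithelial markers summed to 268 and 232 against 173 and 177 TPM and by counts 2 of them rose and 2 fell. The 5 luminal markers summed to 116 and 89.7 against 158 and 148 TPM, but by counts none of the 3 tested was called higher and 1 was called lower, namely ESR1, to which reads of the ER-Src fusion may be assigned. The ESR1 call was lost in each fit without 1 library (adjusted p = 0.15 and 0.018 without YAPi_ETH replicate 1 or 2, 0.35 and 0.23 without Ctrli_ETH replicate 1 or 2). Whether these signals had a part in the results was not tested. Fewer cells of a type and less RNA per cell cannot be told apart in bulk RNA.

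YAP1 mRNA was 5.2-fold lower after the knockdown. Its normalised counts were 2159 and 2004 in Ctrli_ETH and 387 and 421 in YAPi_ETH (log2 fold change -2.38, SE 0.14, adjusted p = 1.9e-62, DESeq2). In the libraries with siRNA against TAZ they were 1952 and 1711, so only the YAPi_ETH libraries were low. The paralog WWTR1 was measured at 389 and 431 in Ctrli_ETH and 417 and 379 in YAPi_ETH, with overlapping groups and a log2 fold change of -0.05 (95% interval -0.43 to 0.33), whereas TAZi_ETH held 115 and 112. YAPi_ETH therefore had little YAP1 mRNA and WWTR1 mRNA within that interval of the control.

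With YAP1 low, 1713 of 14793 genes tested passed an adjusted p of 0.01 (11.6%), 756 higher (5.11%) and 957 lower (6.47%). Among genes with a mean normalised count of at least 100, 1517 of 10035 passed (15.1%), and 460 of them differed at least 2-fold (4.58%). Most called genes were protein-coding (702 higher, 796 lower). The median log2 fold change over all genes tested was −0.0028. Library choice mattered for the number of calls, which was 971 or 735 without YAPi_ETH replicate 1 or 2, and 489 or 514 without Ctrli_ETH replicate 1 or 2. For most gene lists below in which the number of called members moved by more than 1.5 times, the rises or falls in these 4 fits are given in that order. Against the other ETH knockdowns, 265 of the 756 higher genes (35.1%) and 150 of the 957 lower genes (15.7%) were called again in the same direction. The estimate kept its sign for 747 and 914 of them.

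The genes that rose most included genes of keratinocyte differentiation, enzymes and a transport channel. Of all genes tested, 67.1% had normalised counts that did not overlap between the groups, against which the lack of overlap of any 1 gene is to be read. By the rule used to name genes (adjusted p under 0.01, mean normalised count of at least 100, groups that did not overlap, then by fold) these were ENTPD3, CYP1A1, AZGP1, A2ML1, SPRR1B, AQP3, KRT6C, S100A8, SBSN, KRT16, IL1RN, S100A7, FAM25A, AKR1B10 and HES2, and each was called under all 12 alternative settings, including each fit without 1 library and the fit against other knockdowns. ENTPD3, an enzyme that splits extracellular nucleotides, was at 2.04 and 6.92 in Ctrli_ETH and 212 and 244 in YAPi_ETH (log2 fold change 5.70, SE 0.60, adjusted p = 5.1e-19). Nearly absent from the control libraries, it was also low under TAZi_ETH (21.7 and 24.5). CYP1A1, a detoxifying cytochrome P450 under control of the aryl hydrocarbon receptor, went from 32.6 and 42.7 to 805 and 2554 (log2 fold change 5.47, SE 0.82, adjusted p = 1.5e-09). Its YAPi_ETH libraries lay above all other ETH libraries but far from each other. AZGP1, a secreted zinc-binding glycoprotein, was measured at 10.2 and 11.5 against 381 and 343 (log2 fold change 5.06, SE 0.41, adjusted p = 3.2e-32), and A2ML1, a protease inhibitor of the upper epidermis, at 22.4 and 33.4 against 781 and 846 (log2 fold change 4.87, SE 0.28, adjusted p = 1.4e-66). Control values of both were low and close together, and the YAPi_ETH values lay well above them. The water and glycerol channel AQP3 rose from 12.2 and 27.7 to 326 and 454 (log2 fold change 4.30, SE 0.37), the aldo-keto reductase AKR1B10 from 14.2 and 23.1 to 118 and 264 (log2 fold change 3.35, SE 0.48) and the repressor HES2 from 51.9 and 66.9 to 428 and 669 (log2 fold change 3.20, SE 0.28). In each of these the TAZi_ETH libraries lay between the groups, with AQP3 at 63.98 and 51.8, AKR1B10 at 65.2 and 70.6 and HES2 at 116 and 229. FAM25A shares 71% of its exon length with another gene on its strand, so its counts may be split between them.

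**Figure D1:**
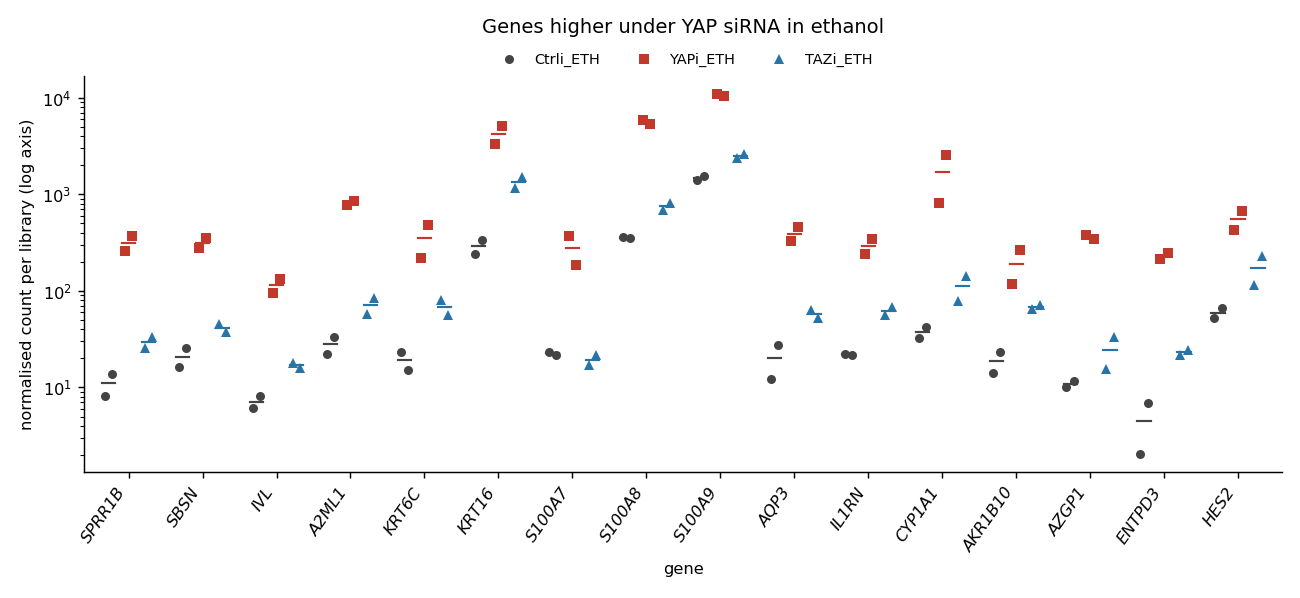
Normalised counts (log axis) of 16 genes that rose, 1 point per library with the group mean as a line, for Ctrli_ETH, YAPi_ETH and TAZi_ETH. YAPi_ETH points lie above both Ctrli_ETH points for every gene shown, and TAZi_ETH points lie mostly between them.

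Cornified envelope genes encode the cross-linked protein shell of dying keratinocytes, its transglutaminases and its precursors. Of 24 such genes, 23 had counts and 14 were tested, and 9 rose while none fell, with a median log2 fold change of 2.95. The 9 with counts that were not tested were below 19 in all 4 libraries. A gene near 0 in Ctrli_ETH could be tested only if it was high enough in YAPi_ETH, so the count and median over tested members are descriptions. The called members numbered 7, 6, 5 and 8 with 1 library left out. SPRR1B, a small proline-rich envelope precursor, was at 8.14 and 13.8 in Ctrli_ETH and 258 and 367 in YAPi_ETH (log2 fold change 4.83, SE 0.44, adjusted p = 4.0e-26). Suprabasin (SBSN), secreted by suprabasal keratinocytes, was at 16.3 and 25.4 against 274 and 351 (log2 fold change 3.91, SE 0.36, adjusted p = 2.4e-24), and cystatin A (CSTA), a cysteine protease inhibitor laid down in the envelope, at 685 and 663 against 1550.1 and 1391 (log2 fold change 1.12, SE 0.14, adjusted p = 4.0e-13). For these 3 genes every YAPi_ETH library exceeded every other ETH library of the knockdowns against TAZ, STAT3 and JUNB. Involucrin (IVL), the classic early envelope scaffold, had counts too low for the naming rule and is given because it defines the list. It was at 6.11 and 8.07 against 94.6 and 133 (log2 fold change 4.00, SE 0.59, adjusted p = 7.4e-10).
The other 5 that rose were also of low count and were named after their values were seen. SPRR3 was at 0 and 1.15 against 55.5 and 76.9, TGM3 at 0 and 1.15 against 52.00 and 68.7, SPRR1A at 2.04 and 2.31 against 33.7 and 78.1, and SPRR2D at 5.09 and 0 against 53.8 and 62.9. Filaggrin (FLG) was at 17.3 and 34.6 against 74.5 and 133, but TAZi_ETH was as high (95.4 and 134). Each of these calls was lost in at least 1 fit without a library (without Ctrli_ETH replicate 1, adjusted p = 0.0103 for SPRR3, 0.014 for TGM3, 0.016 for SPRR1A and 0.19 for FLG, and without Ctrli_ETH replicate 2, 0.012 for SPRR2D). SPRR2D was also lost without YAPi_ETH replicate 1 (0.57) or 2 (0.67), FLG without YAPi_ETH replicate 1 (0.019) or 2 (0.3), and SPRR1A without YAPi_ETH replicate 2 (0.083). TGM3 shares 95% of its exon length with another gene on its strand. Against the other ETH knockdowns 9 of the 14 members rose and none fell, with a median of 3.04.

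Promoters of called genes and of tested list members were searched for 3 motifs, namely TGANTCA (AP-1), GGAATG (TEAD) and GGCGGGAA (E2F). Both strands of RefSeq windows (GRCh38.p14) were used, from 250 bases before to 50 bases after each gene start. No motif contains another. An AP-1 match was found in 11.9% of the 556 windows of higher protein-coding genes, 3.69% of the 651 windows of lower ones, 4.65% of the 9955 windows of protein-coding genes tested and 7.76% of all 27305 windows. For TEAD the shares were 10.3, 9.37, 10.8 and 14%, in the same order. Among the 9 tested cornified envelope genes with a window, 7 held an AP-1 match (77.8%) and 5 a TEAD match (55.6%). As said above, members low in Ctrli_ETH could be tested only if high in YAPi_ETH, so these shares are descriptions. Of the 9, SCEL, with an AP-1 match, and KRT10, without, were not called higher. To show where the AP-1 letters lie, the 180 bases before the start are given for SPRR1B (chr1:153031023-153031202, + strand), IVL (chr1:152908366-152908545, + strand) and SBSN (chr19:35528312-35528491, − strand), 5′ to 3′ along the gene, with matches in capitals.
SPRR1B: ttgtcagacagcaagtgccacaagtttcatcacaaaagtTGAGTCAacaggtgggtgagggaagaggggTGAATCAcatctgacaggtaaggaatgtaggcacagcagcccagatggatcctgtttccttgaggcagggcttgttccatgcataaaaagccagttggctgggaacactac
IVL: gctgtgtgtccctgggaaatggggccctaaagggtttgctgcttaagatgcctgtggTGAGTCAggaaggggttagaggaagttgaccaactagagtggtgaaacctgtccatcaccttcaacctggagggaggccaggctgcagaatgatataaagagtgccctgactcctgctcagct
SBSN: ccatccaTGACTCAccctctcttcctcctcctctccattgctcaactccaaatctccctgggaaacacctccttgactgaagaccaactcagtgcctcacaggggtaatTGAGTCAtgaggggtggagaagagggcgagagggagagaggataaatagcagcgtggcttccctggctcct
Matches begin 141 and 111 bases before the start in SPRR1B, 123 in IVL, and 173 and 71 in SBSN. A match is a run of letters, and binding at these places was not measured here.

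Keratins, the intermediate filament proteins of epithelia, moved in both directions. Of 18 listed, 14 were tested, and 4 rose and 4 fell. The 4 that rose are keratins of hyperproliferative or wounded epidermis and of hair follicle. KRT16 was at 242 and 337 in Ctrli_ETH and 3346 and 5076 in YAPi_ETH (log2 fold change 3.85, SE 0.37, adjusted p = 3.6e-23), KRT6C at 23.4 and 14.99 against 217 and 485 (log2 fold change 4.16, SE 0.42, adjusted p = 1.3e-20) and KRT6B at 162 and 173 against 693 and 1069.6 (log2 fold change 2.38, SE 0.22, adjusted p = 5.7e-24). KRT6A, KRT6B and KRT6C are near-identical paralogs, so reads may be divided among them. The most abundant of them, KRT6A, measured 13024 and 13777 against 21105 and 33188 and did not pass (log2 fold change 1.01, SE 0.32, adjusted p = 0.012). KRT17 was at 11739 and 12733 against 28564 and 49159 (log2 fold change 1.66, SE 0.38, adjusted p = 2.4e-04), a call that was lost without Ctrli_ETH replicate 1 (adjusted p = 0.16) or 2 (0.1). TAZi_ETH was as high for KRT17, at 31878 and 42952. The 4 that fell were the basal keratin KRT14, the simple-epithelial keratins KRT18 and KRT7, and the hair keratin KRT81. KRT14 was at 5002 and 6441 against 2335 and 3196 (log2 fold change -1.06, SE 0.15, adjusted p = 3.5e-10), and KRT81, chosen with KRT18 and KRT7 after values were seen, at 64072 and 71502 against 24827 and 29033 (log2 fold change -1.34, SE 0.11, adjusted p = 1.3e-32). Log2 fold changes were -0.94 for KRT18 and -0.75 for KRT7. KRT5, the partner of KRT14 in basal cells, was at 56870.0 and 62607 against 52049 and 73028, with overlapping groups.

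S100 proteins are small calcium-binding proteins, several of which lie in the epidermal differentiation cluster with the envelope genes. Of 13 tested, 6 rose and 1 fell. S100A8 and S100A9, which pair to form calprotectin, both rose. S100A8 was at 361 and 350.5 against 5816 and 5300.4 (log2 fold change 3.96, SE 0.13, adjusted p = 6.4e-212). S100A9 was at 1414 and 1544 against 10764 and 10476 (log2 fold change 2.84, SE 0.11, adjusted p = 9.6e-155). The next highest ETH libraries were those of TAZi_ETH, at 684 and 812 for S100A8 and 2367 and 2635 for S100A9. S100A7 (psoriasin), an antimicrobial protein of inflamed epidermis, was at 23.4 and 21.9 against 369 and 185 (log2 fold change 3.61, SE 0.41, adjusted p = 1.5e-16), and S100P at 135 and 197 against 673 and 847 (log2 fold change 2.19, SE 0.22, adjusted p = 1.2e-20). TAZi_ETH libraries stayed near the control for both, S100A7 at 16.9 and 21.6 and S100P at 158 and 159.8.

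Genes of cell junctions and of attachment to the matrix were taken by list. Of 20 genes for desmosomes and tight junctions, 18 were tested, and 8 rose and 1 fell. Claudin-1 (CLDN1), a tight junction strand protein, was at 123 and 93.4 in Ctrli_ETH and 473 and 489 in YAPi_ETH (log2 fold change 2.14, SE 0.24, adjusted p = 3.1e-17). Of the desmosomal cadherins, DSC2 rose from 410.1 and 385 to 1168 and 1335 (log2 fold change 1.64, SE 0.16) and DSG3 from 1841 and 1986 to 4015 and 4615 (log2 fold change 1.16, SE 0.12). CLDN1, DSC2 and DSG3 kept their calls against the other ETH knockdowns, where 4 of the 18 rose and 1 fell. MARVELD2, a tight junction protein of cell corners, was at 156 and 144 against 301 and 346 (log2 fold change 1.10, SE 0.24, adjusted p = 1.3e-04), and its call was lost in each fit without 1 library (adjusted p = 0.022 and 0.055 without YAPi_ETH replicate 1 or 2, 0.034 and 0.058 without Ctrli_ETH replicate 1 or 2).
Genes of the hemidesmosome and its laminin, which anchor basal cells to the basement membrane, were called higher in 5 of 9 cases and lower in none, with 6, 5, 3 and 4 rises when 1 library was left out. COL17A1 was at 4911 and 5443 against 9205 and 9799 (log2 fold change 0.87, SE 0.10, adjusted p = 1.2e-14) and LAMB3 at 5678 and 5643 against 8796 and 11078 (log2 fold change 0.80, SE 0.12, adjusted p = 1.3e-09), and both kept the call without any 1 library. ITGB4 rose by 0.63 on the log2 scale, but its call was lost without YAPi_ETH replicate 2 (adjusted p = 0.012) or Ctrli_ETH replicate 1 (0.15). E-cadherin (CDH1) rose, from 697 and 684 to 1267 and 1501, and EpCAM (EPCAM) fell, from 581 and 575 to 207 and 264 (log2 fold change -1.31, SE 0.20, adjusted p = 4.4e-09). Fibronectin (FN1), a matrix protein, rose from 4552 and 5235 to 16827 and 12857 (log2 fold change 1.59, SE 0.13, adjusted p = 2.4e-30). These 3 were in a list of 19 genes of epithelial and mesenchymal state, of which 17 were tested, 4 rose and 1 fell. With 1 library left out the rises numbered 2, 2, 2 and 2, with 1 fall each time.
Integrins went both ways, 5 of 12 higher and 2 lower. With 1 library left out the rises numbered 3, 2, 1 and 2 and the falls 1, 2, 0 and 1. ITGAV, the partner of several beta chains, rose from 1634 and 1627 to 2900.4 and 2676 (log2 fold change 0.77, SE 0.12). The collagen receptor chain ITGA1 fell from 434 and 368 to 196 and 157 (log2 fold change -1.18, SE 0.23), a call lost without Ctrli_ETH replicate 1 (adjusted p = 0.069).

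Transcription factors of epithelial lineage were called mostly higher. Of 21 listed, 16 were tested, and 8 rose and 1 fell, with a median log2 fold change of 0.67. The fall was that of ESR1, to which reads of the ER-Src fusion may be assigned. edgeR called 8 higher and 0 lower. The rises numbered 3, 2, 3 and 3 with 1 library left out. GRHL3, a factor of the epidermal barrier, was at 65.1 and 72.6 in Ctrli_ETH and 213 and 416 in YAPi_ETH (log2 fold change 2.17, SE 0.34, adjusted p = 6.2e-09). EHF, an ETS factor of differentiated epithelia, was at 138 and 130.3 against 565 and 439 (log2 fold change 1.90, SE 0.23, adjusted p = 3.9e-14). Both sets of YAPi_ETH libraries lay above their controls, and TAZi_ETH fell between for GRHL3 (142 and 193) and for EHF (345 and 379). KLF5 was at 545 and 487 against 848 and 1209, and lost its call without YAPi_ETH replicate 2 (adjusted p = 0.019) or Ctrli_ETH replicate 2 (0.022). TP63, the master factor of stratified epithelium, was at 283 and 346 against 508 and 502 (log2 fold change 0.68, SE 0.20, adjusted p = 0.0058), and no fit without 1 library called it (adjusted p = 0.19 and 0.11 without YAPi_ETH replicate 1 or 2, 0.41 and 0.074 without Ctrli_ETH replicate 1 or 2).

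Genes for secreted cytokines, growth factors and protease regulators were called higher, and none lower. Of 25 cytokine and chemokine genes 13 were tested and 7 rose, with a median log2 fold change of 1.17, which describes only members with enough counts. The rises numbered 5, 2, 6 and 4 with 1 library left out. The interleukin-1 receptor antagonist IL1RN was at 22.4 and 21.9 in Ctrli_ETH and 238 and 346 in YAPi_ETH (log2 fold change 3.71, SE 0.37, adjusted p = 2.5e-21), and CXCL8, the neutrophil chemokine interleukin-8, at 385 and 307 against 1346 and 877 (log2 fold change 1.68, SE 0.21, adjusted p = 1.5e-13). YAPi_ETH libraries were the highest of all 10 ETH libraries for both. CCL20 (log2 fold change 1.58) and IL1A (1.56) were called too, but not without YAPi_ETH replicate 2 (adjusted p = 0.059 and 0.12).
Of 11 EGF family genes 10 were tested and 3 rose. The ligand HBEGF was at 85.5 and 71.5 against 277 and 397 (log2 fold change 2.08, SE 0.29, adjusted p = 4.4e-11). EREG, another ligand, was at 427 and 357 against 879 and 1069.6 (log2 fold change 1.30, SE 0.18, adjusted p = 1.6e-11). Their receptor EGFR was at 2898 and 2739 against 4278 and 4583 (log2 fold change 0.64, SE 0.11), a call lost without Ctrli_ETH replicate 2 (adjusted p = 0.023), and levels were as high in TAZi_ETH (3935 and 4446) and JUNBi_ETH (4749.7 and 4567). A further ligand, AREG, was at 2713 and 2211 against 2241 and 2808, with overlapping groups.
In the urokinase and serpin list 7 of 13 tested genes rose, with a median of 1.00, and 5, 4, 3 and 4 rose with 1 library left out. Urokinase (PLAU), which activates plasminogen at the cell surface, was at 136 and 163 against 412 and 382 (log2 fold change 1.41, SE 0.23, adjusted p = 6.9e-08). The serpin SERPINB13, an inhibitor of cathepsins in keratinocytes, was at 35.6 and 39.2 against 243 and 232 (log2 fold change 2.66, SE 0.33, adjusted p = 1.4e-13), with TAZi_ETH at 186 and 164. SERPINE2 was at 77.3 and 93.4 against 268 and 240.0 and lost its call without YAPi_ETH replicate 1 (adjusted p = 0.023) or Ctrli_ETH replicate 1 (0.014), and SERPINB2 (60.03 and 59.9, then 179.6 and 569) without YAPi_ETH replicate 2 (0.021) or Ctrli_ETH replicate 1 (0.31) or 2 (0.3).
Genes of the NRF2 response, which handle oxidants and conjugate drugs, were called higher in 8 of 16 cases and lower in none, and the rises numbered 12, 5, 1 and 1 with 1 library left out. AKR1B10 is described above. AKR1C2, whose paralogs may share its reads, rose by 2.07 on the log2 scale (SE 0.49) to 937 and 1927, GCLM was at 444 and 435 against 669 and 1007 and ABCC3 at 753 and 789 against 1100.3 and 1536. The last 3 lost the call without Ctrli_ETH replicate 1 (adjusted p = 0.16, 0.037 and 0.075) or 2 (0.17, 0.042 and 0.038), and GCLM and ABCC3 also without YAPi_ETH replicate 2 (0.094 and 0.076).

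Genes commonly read as YAP/TAZ targets were called in both directions in ethanol. Of 22 canonical targets, all tested, 3 rose and 2 fell, 22.7% of the list against 11.6% of all genes, and the median log2 fold change was 0.20. With 1 library left out the rises numbered 1, 2, 1 and 1 and the falls 1, 1, 0 and 0. edgeR called 1 higher and 1 lower of the 22 (9.09%, against 11.2% of all genes). With the other ETH knockdowns as the reference, 2 were higher and 3 lower, with a median of -0.14. Against Ctrli_ETH, tissue factor (F3), the initiator of coagulation, rose from 1001 and 828 to 2643 and 3899 (log2 fold change 1.83, SE 0.17, adjusted p = 1.6e-24). GADD45A, a stress-response gene, was at 139 and 219 against 293 and 376 (log2 fold change 0.89) and CRIM1 at 3210.3 and 3161 against 4140.2 and 4072 (log2 fold change 0.36). The falls were CCDC80, a matrix protein (1499.8 and 1438, then 908 and 869, log2 fold change -0.73, SE 0.13, adjusted p = 1.5e-06), and MYOF, a membrane repair protein (5161 and 5424, then 4179.8 and 3988, log2 fold change -0.38, SE 0.10, adjusted p = 0.0029). F3 alone was called in every fit without 1 library. CCDC80 was lost without Ctrli_ETH replicate 1 (adjusted p = 0.031) or 2 (0.013). GADD45A, CRIM1 and MYOF were lost in all 4 such fits. The adjusted p was 0.066, 0.33, 0.49 and 0.016 for GADD45A, 0.11, 0.049, 0.32 and 0.39 for CRIM1, and 0.017, 0.096, 0.18 and 0.35 for MYOF, without YAPi_ETH replicate 1, 2 and Ctrli_ETH replicate 1, 2, in that order.
The matricellular proteins CCN1 and CCN2, the best known TEAD-dependent targets, did not pass. CCN1 was at 793 and 771 in Ctrli_ETH and 819.6 and 753 in YAPi_ETH (log2 fold change 0.00, 95% interval -0.30 to 0.30) and CCN2 at 123 and 105 against 102 and 112 (-0.11, -0.76 to 0.55). For ANKRD1 the values were 64.1 and 85.3 against 102 and 75.7, for AXL 1628 and 1799.6 against 1896 and 1698, and for AMOTL2 1379.8 and 1406 against 1661 and 1658. Groups overlapped for CCN1, CCN2, ANKRD1 and AXL but not for AMOTL2. The other canonical targets that did not pass had log2 fold changes from -1.03 for IGFBP3 to 0.86 for TGFB2.

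Upstream of YAP, no Hippo gene was called. Of 21 Hippo kinases and regulators 19 were tested, none passed in either direction, and estimates ran from -0.63 for MOB1B to 0.25 for NF2, around a median of 0.10. Of all genes 11.6% passed, and in a list this short that share would give few calls. Whether the list differed from that share was not tested. DESeq2 and edgeR both called 0 of them, and 4 had an unadjusted p under 0.05 in DESeq2 (2 higher, 2 lower). Of the kinases that phosphorylate YAP, LATS1 was at 258 and 219 against 272 and 278 and LATS2 at 283 and 246 against 293 and 312. Of the DNA-binding partners, TEAD1 was at 1218 and 1092 against 1314 and 1219, TEAD3 at 54.9 and 68.02 against 71.5 and 101, and TEAD4 at 307 and 302 against 232 and 249. In the list of TEAD and VGLL genes, which also holds WWTR1, 7 genes were tested and DESeq2 called only TEAD2 (14.3% of the list, against 11.6% of all genes). It was at 238 and 219 against 112 and 125 (log2 fold change -0.96, SE 0.27, adjusted p = 0.0044). No fit without 1 library kept the TEAD2 call, with log2 fold changes from -1.03 to -0.89. edgeR called 1 higher and 1 lower in this list.
AP-1 genes encode the JUN, FOS and MAF proteins that pair on TGANTCA sites. Of 12 tested, 2 rose and 1 fell, and the rises numbered 2, 1, 1 and 2 with 1 library left out. FOSL2 rose from 881 and 878 to 1487 and 1748 (log2 fold change 0.87, SE 0.14, adjusted p = 2.6e-08), and it was as high in TAZi_ETH (1522 and 1860.3) and JUNBi_ETH (1554 and 2248). JUN was at 264 and 331 against 553 and 778 (log2 fold change 1.15, SE 0.21, adjusted p = 2.5e-06), with the call lost without YAPi_ETH replicate 2 (adjusted p = 0.02) or Ctrli_ETH replicate 1 (0.025). FOS was at 251 and 291 against 135 and 132 (log2 fold change -1.03, SE 0.26, adjusted p = 8.7e-04) and was lost in each fit without 1 library (adjusted p = 0.058, 0.048, 0.076 and 0.21 without YAPi_ETH replicate 1, 2 and Ctrli_ETH replicate 1, 2). With all libraries the AP-1 calls against Ctrli_ETH made up 25% of the list, against 11.6% of all genes. Against the other ETH knockdowns DESeq2 called no AP-1 gene, with 4 of 12 at an unadjusted p under 0.05.
In the STAT3 pathway 3 of 18 tested genes rose and none fell, and 1, 3, 1 and 1 rose with 1 library left out. With all libraries the calls made up 16.7% of this list, against 11.6% of all genes. The interleukin-6 receptor IL6R rose from 167 and 226 to 612 and 718 (log2 fold change 1.75, SE 0.21, adjusted p = 1.5e-14), above every other ETH library. STAT3 itself was at 2017 and 1976 against 1989 and 1927 (log2 fold change -0.03, 95% interval -0.27 to 0.20).

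Cell-cycle genes were called lower than in Ctrli_ETH, and the calls depended on which libraries served as the reference. Of 40 mitosis genes, all tested, 31 fell and none rose, with a median log2 fold change of −0.79. DNA replication genes fell in 16 of 42 cases and rose in none, with a median of −0.50. The proliferation marker MKI67 was at 5019.5 and 4576 in Ctrli_ETH and 2363 and 1681 in YAPi_ETH (log2 fold change -1.25, SE 0.15, adjusted p = 6.6e-15). KIF20A, a mitotic kinesin, was at 3295 and 3086 against 1838 and 1218, the phosphatase CDC25C at 421 and 383 against 200.3 and 167, and the spindle protein DLGAP5 at 1467 and 1232 against 802 and 507, with log2 fold changes of -1.06, -1.13 and -1.04. Each of the 3 was called with all libraries but not without Ctrli_ETH replicate 1 (adjusted p = 0.33, 0.058 and 0.033) or 2 (0.26, 0.016 and 0.31), and CDC25C also not without YAPi_ETH replicate 2 (0.0105). Thymidylate synthase (TYMS), which makes dTMP, was at 788 and 795 against 357 and 223 (log2 fold change -1.44, SE 0.22, adjusted p = 1.2e-09), and thymidine kinase (TK1) at 974 and 939.6 against 522 and 471 (log2 fold change -0.95, SE 0.16, adjusted p = 6.6e-08). Of the replicative helicase, CDC45 was at 621 and 608 against 343 and 274 and MCM6 at 1648 and 1441 against 903 and 659, and both calls were lost without Ctrli_ETH replicate 1 (adjusted p = 0.031 and 0.014), CDC45 also without replicate 2 (0.021).
Levels of mitosis genes were also low in TAZi_ETH and JUNBi_ETH. MKI67 was at 3421 and 2737 in TAZi_ETH and 2207 and 1743 in JUNBi_ETH, but at 4041 and 3452 in STAT3i_ETH. Median log2 levels of the mitosis list, relative to the Ctrli_ETH mean, were −0.61 and −1.05 in YAPi_ETH, −0.52 and −0.65 in TAZi_ETH, −0.71 and −1.03 in JUNBi_ETH, and 0.26 and 0.02 in STAT3i_ETH. With the other ETH knockdowns as the reference, DESeq2 called no mitosis gene and no DNA replication gene, although 14 of the former and 10 of the latter were lower at an unadjusted p under 0.05. Leaving out a library gave 35 and 17 falls in mitosis without YAPi_ETH replicate 1 or 2, and 4 and 12 without Ctrli_ETH replicate 1 or 2. In DNA replication the falls were 16, 7, 4 and 6, in the same order. The JUNBi_ETH and TAZi_ETH libraries also had less rRNA than Ctrli_ETH, and whether the rRNA share had a part in these falls was not tested.
For DNA replication, the E2F letters GGCGGGAA were in 10 of 34 windows (29.4%), against 5.33% of those of protein-coding genes tested, and in mitosis in 2 of 34 (5.88%). The replication list was picked by function and holds E2F genes itself, so its share describes the list and not the falls. Over called protein-coding genes the share was 7.22% for lower and 3.24% for higher ones. Of the replication genes with a match, RFC2, MCM3, PCNA, RRM1 and UHRF1 were called lower, and CLSPN, GINS2, RFC4, CDT1 and CHAF1A were not called. MCM3, a helicase subunit, is shown with its 180 bases before the start (chr6:52284743-52284922, − strand), where matches begin 173 and 24 bases before the start and stand in capitals.
MCM3: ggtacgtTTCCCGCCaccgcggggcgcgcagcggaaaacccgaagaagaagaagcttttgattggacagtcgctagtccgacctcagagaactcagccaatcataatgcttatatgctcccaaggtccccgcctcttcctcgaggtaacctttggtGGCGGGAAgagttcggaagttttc
MCM3 was at 2685 and 2726 against 1954 and 1580.0 (log2 fold change -0.62, SE 0.13, adjusted p = 6.4e-05), a call lost without YAPi_ETH replicate 2 (adjusted p = 0.022) or Ctrli_ETH replicate 1 (0.049) or 2 (0.067).
Of 15 G1 regulators tested, 3 rose and 1 fell, and with 1 library left out the rises numbered 3, 3, 2 and 2 and the falls 1, 0, 0 and 0. Of the cyclins that drive G1, cyclin D1 (CCND1) rose from 1526 and 1518 to 3524 and 3923 (log2 fold change 1.28, SE 0.12) and cyclin D2 (CCND2) from 508 and 526 to 1220.3 and 1126 (log2 fold change 1.18, SE 0.15), and both kept the call under all 12 alternatives. The CDK inhibitor p21 (CDKN1A) was at 1479.5 and 1564 against 2779 and 4404 (log2 fold change 1.23, SE 0.32, adjusted p = 0.0016), lost without Ctrli_ETH replicate 1 (adjusted p = 0.28) or 2 (0.2). Among p53 targets 5 of 23 rose and 2 fell (rises of 3, 3, 1 and 0 and falls of 0, 0, 0 and 0 with 1 library left out), and against the other ETH knockdowns DESeq2 called none, with 4 of 23 at an unadjusted p under 0.05.

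**Figure D2:**
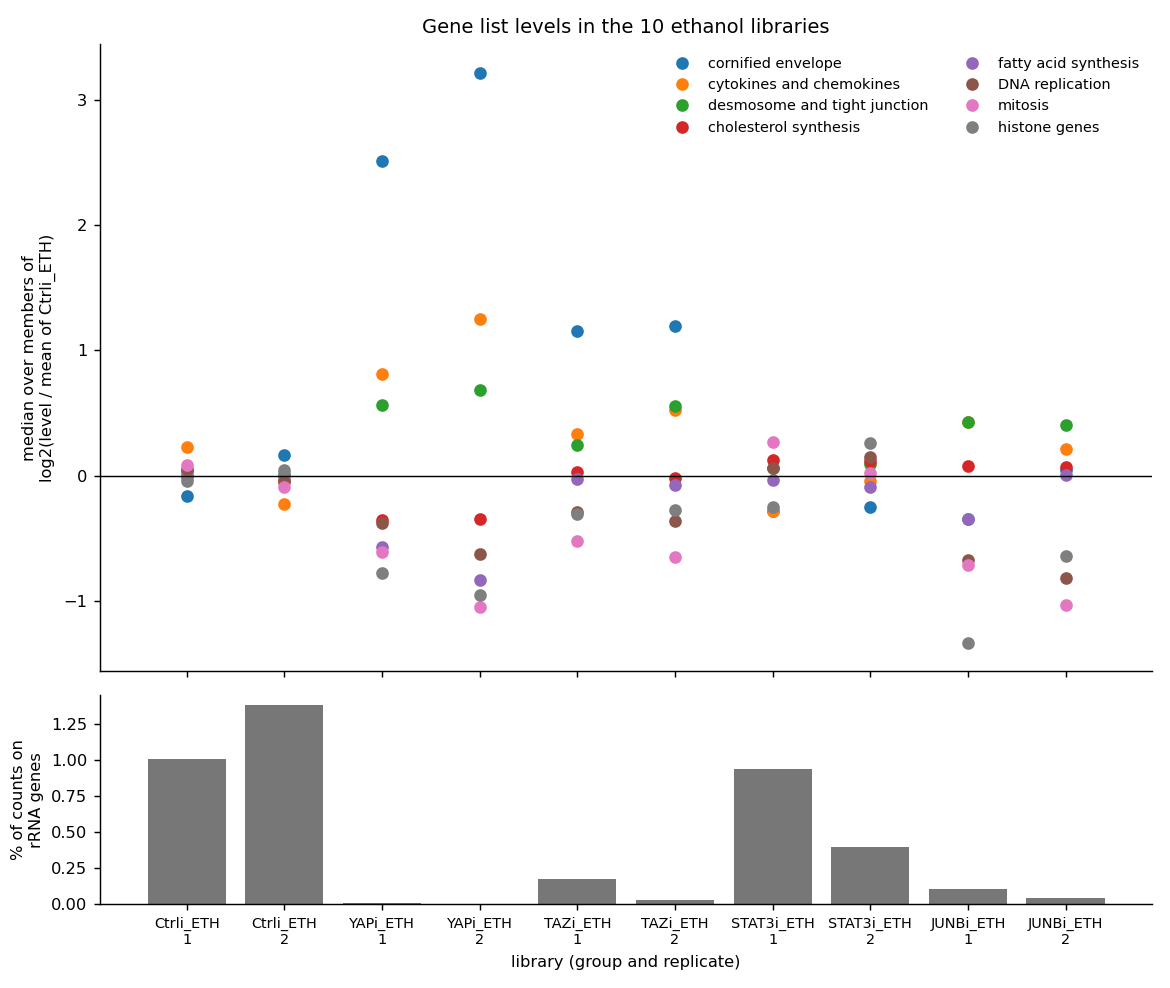
The upper panel shows, for 8 gene lists, the median log2 normalised count of the members relative to the Ctrli_ETH mean in each of the 10 ETH libraries, and the lower panel shows the percent of counts on rRNA genes. The cornified envelope median is 2.51 and 3.22 in YAPi_ETH and 1.15 and 1.19 in TAZi_ETH, while the mitosis median is below 0 in YAPi_ETH, TAZi_ETH and JUNBi_ETH. The envelope median covers the 14 members tested against Ctrli_ETH, and members near 0 there were tested only if high in YAPi_ETH.

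RNA-binding protein and histone genes were among the largest falls, and Ctrli_ETH stood apart for them. By the rule, the genes that fell most were the histone gene H4C12 and copies of 5S and 5.8S rRNA genes with identical counts, so protein-coding falls were added after the values were seen. HNRNPA2B1, an RNA-binding protein of splicing and RNA transport, was at 9879 and 9564 in Ctrli_ETH and 3086 and 2551 in YAPi_ETH (log2 fold change -1.79, SE 0.12, adjusted p = 1.7e-49), and RPS16, a small-subunit ribosomal protein, at 8699 and 9275 against 2607 and 2486 (log2 fold change -1.83, SE 0.10, adjusted p = 5.6e-66). Neither was low in YAPi_ETH alone. HNRNPA2B1 was at 4360.3 and 2855 in TAZi_ETH, 3912 and 2215 in JUNBi_ETH and 10719.7 and 5622 in STAT3i_ETH. The highest values were thus found in Ctrli_ETH and in STAT3i_ETH replicate 1, the libraries with the largest rRNA shares. H4C12 was at 767 and 414 in Ctrli_ETH, 929 and 134 in STAT3i_ETH, 281 and 0 in JUNBi_ETH and 0 in all YAPi_ETH and TAZi_ETH libraries, and no fold is given. NME1-NME2, a read-through gene that shares 51% of its exon length with its parts, was at 4403 and 3577 in Ctrli_ETH, 765 and 879.7 in YAPi_ETH and 948 and 628 in TAZi_ETH. ANKRD2, a muscle ankyrin repeat protein, was a fall of another kind, at 679.7 and 584 against 121 and 219 (log2 fold change -1.93, SE 0.25, adjusted p = 1.9e-12), below TAZi_ETH (450.3 and 539) and every other ETH library, and it was called under all 12 alternatives. Of 23 HNRNP genes 10 fell and none rose (median −0.41), and of 62 histone genes 52 fell and none rose (median −0.88). Against the other ETH knockdowns 1 of each family fell, with medians of −0.24 and −0.42. With 1 library left out, 48, 35, 37 and 26 histone genes fell. Against TAZi_ETH 1 HNRNP gene and 27 of 60 histone genes were lower in YAPi_ETH, but only 9, 1, 5 and 1 histone genes and no HNRNP gene without YAPi_ETH replicate 1, 2 or TAZi_ETH replicate 1, 2. The part of the rRNA share in these falls was not tested.

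**Figure D3:**
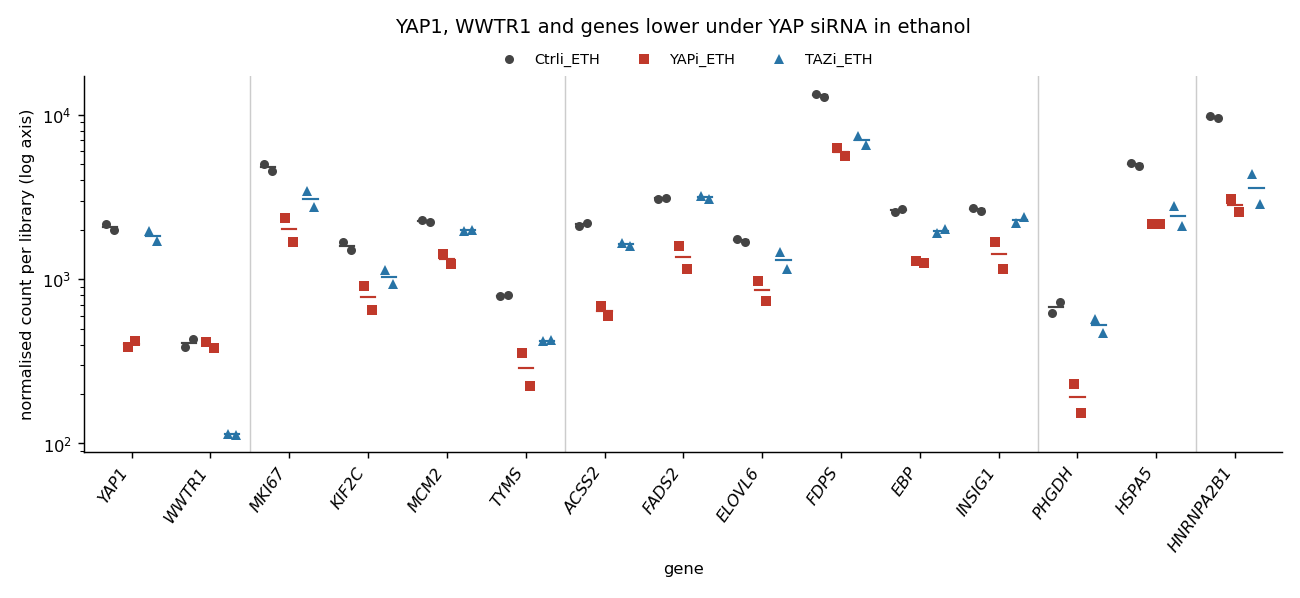
Normalised counts (log axis) of 15 genes, 1 point per library with the group mean as a line, for Ctrli_ETH, YAPi_ETH and TAZi_ETH. YAP1 is low in YAPi_ETH and WWTR1 in TAZi_ETH, the cell-cycle genes and HNRNPA2B1 lie below Ctrli_ETH in both knockdowns (MCM2 only slightly in TAZi_ETH), and FADS2 is low in YAPi_ETH alone.

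Lipid synthesis genes were called lower, and falls were also called against the other ETH knockdowns. Of 11 fatty acid synthesis genes 8 fell and 1 rose, with a median log2 fold change of −0.64, and 9, 7, 4 and 4 fell with 1 library left out. ACSS2, which makes acetyl-CoA from acetate, was at 2108 and 2196 in Ctrli_ETH and 683 and 600.1 in YAPi_ETH (log2 fold change -1.75, SE 0.14, adjusted p = 9.8e-36). The desaturase FADS2 was at 3089 and 3115 against 1584 and 1159 (log2 fold change -1.18, SE 0.15, adjusted p = 1.5e-13) and the elongase ELOVL6 at 1761 and 1675 against 977 and 733 (log2 fold change -1.01, SE 0.16, adjusted p = 6.4e-09). For ACSS2 and FADS2 both YAPi_ETH libraries lay below the other 8 ETH libraries, TAZi_ETH being at 1667 and 1595 for ACSS2 and 3209.9 and 3068 for FADS2. The stearoyl-CoA desaturase SCD was at 16753 and 16726 against 9669.7 and 6347 (log2 fold change -1.07, SE 0.30, adjusted p = 0.0045), a call lost without Ctrli_ETH replicate 1 (adjusted p = 0.31) or 2 (0.32). Against the other ETH knockdowns 6 fatty acid genes fell and none rose (median −0.68).
Of 24 cholesterol synthesis genes 23 were tested, and 9 fell and 1 rose (median −0.36), with falls of 9, 7, 6 and 5 when 1 library was left out. FDPS, the farnesyl diphosphate synthase, was at 13459.9 and 12845 against 6298 and 5609 (log2 fold change -1.15, SE 0.11, adjusted p = 1.9e-25), but TAZi_ETH was nearly as low (7395 and 6557). The sterol isomerase EBP, 36% of whose exon length is shared with another gene on its strand, was at 2575 and 2673 against 1284 and 1247 (log2 fold change -1.06, SE 0.12, adjusted p = 6.7e-17), and INSIG1, a sterol-sensing brake on this pathway, at 2714 and 2615 against 1688 and 1151 (log2 fold change -0.91, SE 0.16, adjusted p = 6.0e-07). PMVK was at 589 and 642 against 321 and 294 and lost its call without Ctrli_ETH replicate 2 (adjusted p = 0.029). Genes of the regulators of both pathways did not pass, SREBF1 at 757 and 882 against 729 and 619.9 and SREBF2 at 716 and 725 against 855 and 1034. Against the other ETH knockdowns 6 of 23 cholesterol genes fell (median −0.46).

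In the list of glycolysis and hypoxia genes 1 of 25 rose and 6 fell (28% called, against 11.6% of all genes). Fewer falls were called in most fits without 1 library, and fewest without either Ctrli_ETH library, while the list median ran from -0.28 to -0.17. edgeR called 1 higher and 3 lower (16%, against 11.2% of all genes). The glucose transporter SLC2A1 was at 589 and 665 against 1115 and 1610.3 (log2 fold change 1.11, SE 0.18, adjusted p = 3.4e-08), lactate dehydrogenase LDHA at 17305 and 16103 against 9763 and 9437 (log2 fold change -0.81, SE 0.10, adjusted p = 2.0e-14), and hexokinase HK2 at 912 and 877 against 531 and 491 (log2 fold change -0.81). HK2 lost its call without Ctrli_ETH replicate 1 (adjusted p = 0.041) or 2 (0.021), and LDHA was as low in TAZi_ETH (10653 and 8847).
Of 24 genes of the ATF4 and unfolded protein responses 1 rose and 7 fell, and 5, 6, 4 and 4 fell with 1 library left out. PHGDH, the entry enzyme of serine synthesis, was at 625 and 723 against 229 and 154 (log2 fold change -1.81, SE 0.22, adjusted p = 3.3e-14). SHMT2, which passes carbon from serine to folate in mitochondria, was at 2498 and 2633 against 1139 and 1173 (log2 fold change -1.16, SE 0.12, adjusted p = 9.5e-20). Both kept their calls against the other ETH knockdowns. The endoplasmic reticulum chaperone HSPA5 fell from 5103 and 4886 to 2171 and 2153, and TAZi_ETH held 2769 and 2099. SLC7A5, an amino acid transporter, was at 3275 and 3338 against 6322 and 10417 (log2 fold change 1.33), lost without Ctrli_ETH replicate 1 (adjusted p = 0.26) or 2 (0.22).
Interferon-stimulated genes were called in 3 of 23 cases, 2 higher and 1 lower, 13.04% against 11.6% of all genes. The rises numbered 0, 1, 0 and 2 with 1 library left out. IFITM1, a membrane protein that limits virus entry, fell from 259 and 265 to 51.4 and 45.4 (log2 fold change -2.43, SE 0.30, adjusted p = 8.3e-14). Contractile genes, often read as YAP output, were called in 3 of 22 cases, 1 higher and 2 lower. That is 13.6%, near the 11.6% of all genes, and edgeR called 0 higher and 2 lower. The actin-binding calponin CNN3 fell from 1125 and 1065 to 492 and 395 (log2 fold change -1.30, SE 0.17, adjusted p = 3.8e-13). Of 24 TGF-beta genes 4 rose and none fell, and 2, 4, 2 and 2 rose with 1 library left out. With all libraries the TGF-beta calls made up 16.7% of the list, against 11.6% of all genes. TGFBI, an abundant matrix protein, was at 30016 and 33228 against 57866 and 69238 (log2 fold change 1.00, SE 0.11). The inhibitor ID3 was at 445 and 458 against 806 and 975 (log2 fold change 0.97, SE 0.17), equally high in TAZi_ETH (873 and 1058). Of 18 collagens 4 rose and 1 fell, with rises of 2, 3, 2 and 3 and falls of 1, 0, 0 and 0 when 1 library was left out. COL16A1 rose from 149 and 181 to 578 and 639 (log2 fold change 1.88, SE 0.21, adjusted p = 4.3e-17). In the lists that follow, the share called with all libraries ran from 0% for Notch to 22.2% for complement, against 11.6% of all genes. No Notch gene was called among 13 by DESeq2 (4 were higher at an unadjusted p under 0.05, and edgeR called 1), and 1 of 17 Wnt genes rose (with 1 library left out, 0, 1, 0 and 0). Among 16 MAPK feedback genes 1 fell, a call lost in all 4 such fits, and among 12 matrix proteases 2 rose (1, 0, 0 and 1). Antigen presentation held 1 rise and 1 fall among 14 genes (14.3%), both lost in all 4 fits. Complement held 1 and 1 among 9 (rises of 1, 1, 0 and 0 and falls of 1, 0, 0 and 0), and apoptosis regulators 2 and 1 among 17 (rises of 0, 0, 1 and 1 and falls of 1, 0, 0 and 0).

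**Figure D4:**
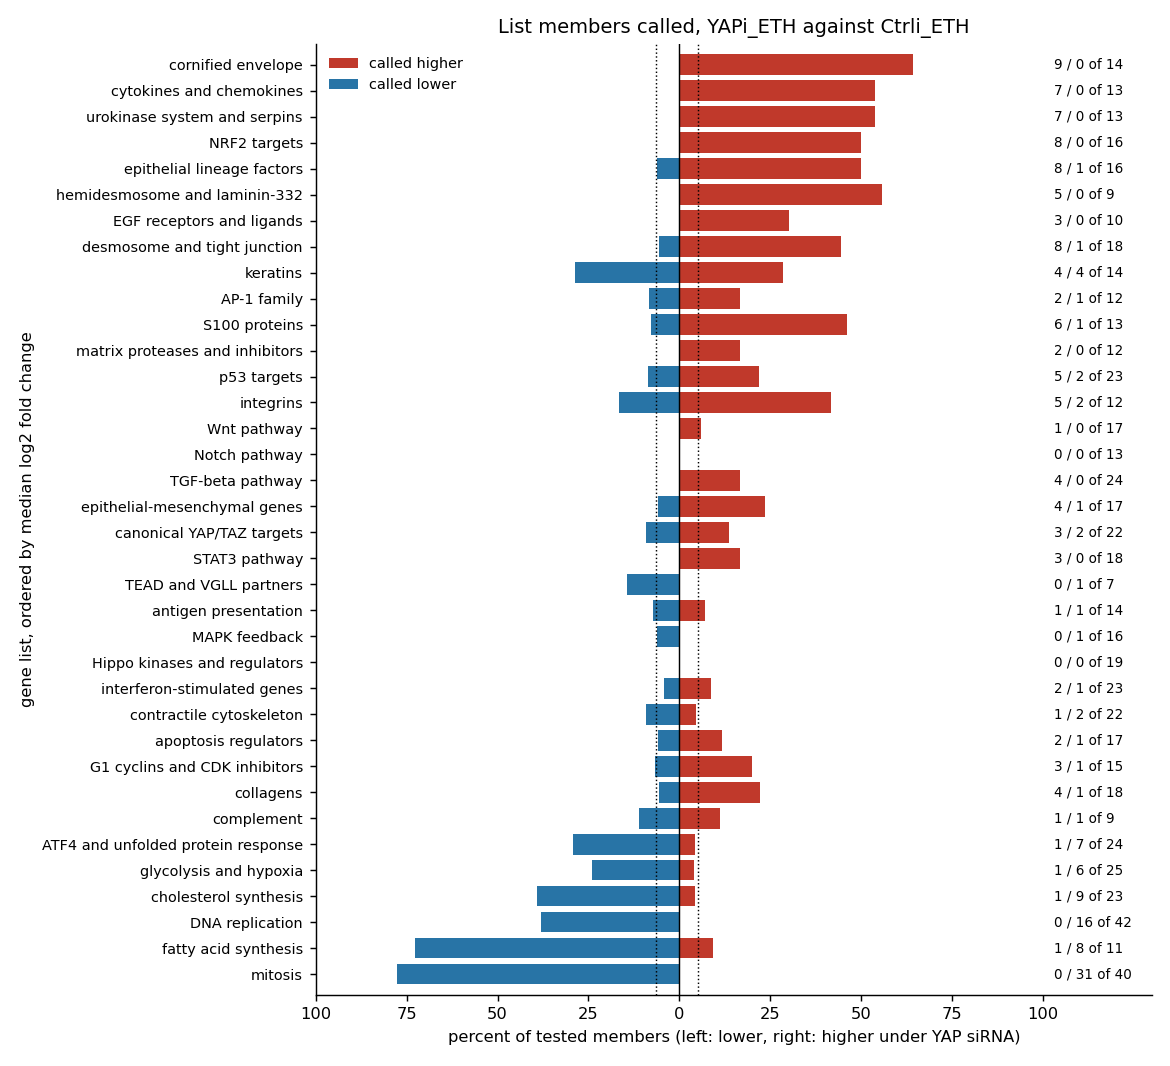
Percent of the tested members of 36 gene lists that were called higher or lower in YAPi_ETH than in Ctrli_ETH, with the counts beside each bar and dotted lines at the shares of all genes tested (5.11% higher, 6.47% lower). Among tested members, 9 of 14 cornified envelope genes were called higher (9 of the 23 with counts), and mitosis (31 of 40) and fatty acid synthesis (8 of 11) have the largest shares of lower calls.

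YAPi_ETH was next compared directly with TAZi_ETH, which shares no control library with it. Of 14059 genes tested, 598 differed (4.25%), 298 higher in YAPi_ETH (2.12%) and 300 lower (2.13%). Normalised counts did not overlap for 57.1% of genes. A list member near 0 in TAZi_ETH could be tested only if high enough in YAPi_ETH, so the counts for envelope and cytokine genes are descriptions. Of the 14 cornified envelope genes tested (24 listed) 7 were higher and 1 lower, of 13 S100 genes 7 and 1, and of 13 cytokine and chemokine genes (25 listed) 6 and none. Without YAPi_ETH replicate 1, 2 and TAZi_ETH replicate 1, 2, in that order, the higher calls numbered 2, 2, 3 and 3 in the first list, 6, 4, 4 and 4 in the second and 3, 5, 4 and 4 in the third. By the naming rule the largest higher estimates were those of AZGP1, CYP1A1, S100A7, A2ML1 and SPRR1B. Their YAPi_ETH values are given above. In TAZi_ETH, AZGP1 was at 15.7 and 33.1 (log2 difference 3.93), CYP1A1 at 78.5 and 144 (3.92), S100A7 at 16.9 and 21.6 (3.87), A2ML1 at 57.9 and 84.95 (3.53) and SPRR1B at 25.4 and 33.1 (3.43). The CYP1A1 call was lost without TAZi_ETH replicate 1 (adjusted p = 0.14) or 2 (0.039), and the other 4 were kept under all 11 alternatives.
Genes lower with YAP than with TAZ knocked down were led by COL5A3, ETNK2, KRT14, C1R and IGFBP3, and here YAPi_ETH values come first. COL5A3, a fibrillar collagen chain, was at 78.6 and 48.9 in YAPi_ETH and 1324 and 1238 in TAZi_ETH (log2 difference -4.27, SE 0.22, adjusted p = 3.5e-78), with Ctrli_ETH at 106 and 224. The control lay between them, nearer to YAPi_ETH. ETNK2, an ethanolamine kinase, was at 86.9 and 83.9 against 645 and 642 (log2 difference -2.90, SE 0.23, adjusted p = 4.6e-34), and KRT14 at 2335 and 3196 against 16378 and 16947 (log2 difference -2.59, SE 0.14, adjusted p = 1.3e-68), with Ctrli_ETH again between them for both genes. C1R, a complement protease, was at 243 and 178 against 1029.7 and 1049.7 (log2 difference -2.28, SE 0.20, adjusted p = 5.4e-27), and IGFBP3, an IGF-binding protein among the canonical targets, at 98.7 and 53.6 against 354 and 373 (log2 difference -2.21, SE 0.31, adjusted p = 2.9e-10). All 5 were called under all 11 alternatives. In fatty acid synthesis 6 of 11 genes were lower in YAPi_ETH than in TAZi_ETH and 1 higher, and in cholesterol synthesis 9 of 23 were lower. These counts depended on the libraries and the tool. In the same 4 fits the lower calls numbered 6, 3, 3 and 2 in fatty acid and 4, 1, 3 and 0 in cholesterol synthesis, and edgeR called 2 and 0 of them, with 9 and 16 at an unadjusted p under 0.05. Mitosis genes differed in 1 of 40 cases and DNA replication genes in 2 of 42, with medians of −0.25 and −0.20.

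Last, the effect of the knockdown in ethanol was set against its effect in tamoxifen, in 1 model over 8 libraries. The effects differed for 78 of 15650 genes (0.498%), 50 with a higher effect in ETH (0.319%) and 28 with a lower one (0.179%). Of 22 canonical targets 1 differed, CCN1. In ethanol it was at 793 and 771 in the control and 819.6 and 753 after the knockdown, while in tamoxifen it was at 772 and 892 against 337 and 337 (difference of the log2 fold changes 1.31, SE 0.21, adjusted p = 5.6e-07). Only the YAPi_TAM libraries were low. The estimate was above 0 for all 22 canonical targets (median 0.47), against 7690 of 15650 genes (median −0.0063), and a p for the list was not computed. Such a lean was not particular to these targets. Estimates were above 0 for 37 of 40 mitosis genes (median 0.22) and 10 of 12 AP-1 genes (0.70). They were below 0 for 20 of 23 cholesterol synthesis genes (median -0.46).
RHOU, an atypical small GTPase, had the largest estimate. It was at 52.9 and 71.5 against 85.7 and 86.2 in ethanol and at 369.9 and 401 against 39.7 and 37.9 in tamoxifen (difference of the log2 fold changes 3.78, SE 0.43, adjusted p = 5.1e-15). High RHOU was thus found only in Ctrli_TAM. TNC, a matrix protein of wounds and tumours, was at 27.5 and 41.5 against 89.2 and 108 in ethanol and 4247 and 3168 against 1673 and 1501 in tamoxifen (difference of the log2 fold changes 2.73, SE 0.30, adjusted p = 1.7e-16), so that YAPi lay above Ctrli in ethanol and below it in tamoxifen. With effective lengths as offsets the TNC difference did not pass (adjusted p = 0.31). STC1, a secreted glycoprotein, was below 13 in all 4 ethanol libraries and at 5261 and 4298 against 394 and 289 in tamoxifen (difference of the log2 fold changes 2.64, SE 0.54, adjusted p = 3.3e-04), and its call was lost without YAPi_ETH replicate 2 (adjusted p = 0.032) or Ctrli_ETH replicate 1 (0.017).
S100A8 and ENTPD3 were higher after the knockdown in both conditions, by a larger ratio in ethanol. S100A8 was at 19854 and 20091 in Ctrli_TAM and 50787 and 38159.8 in YAPi_TAM (difference of the log2 fold changes 2.81, SE 0.18, adjusted p = 5.9e-52), its control level being far higher in tamoxifen than in ethanol. ENTPD3 was at 171 and 143 against 760.5 and 935 (difference of the log2 fold changes 3.28, SE 0.60, adjusted p = 2.1e-05), a call lost without Ctrli_ETH replicate 1 (adjusted p = 0.031) or 2 (0.013).
At the other end, XDH, the xanthine oxidoreductase of milk fat and purine breakdown, was at 857 and 814 against 640.0 and 622 in ethanol and at 454 and 387 against 1829.5 and 1074 in tamoxifen (difference of the log2 fold changes -2.19, SE 0.29, adjusted p = 2.7e-11), and the lysosomal fucosidase FUCA1 was at 530.1 and 482 against 423 and 478 in ethanol and at 249.5 and 215 against 498 and 570.2 in tamoxifen (difference of the log2 fold changes -1.37, SE 0.26, adjusted p = 7.0e-05). Both were higher after the knockdown in tamoxifen and not in ethanol. EHF was higher after the knockdown in both conditions, by a smaller ratio in ethanol, its tamoxifen values being 50.2 and 51.2 against 568 and 558 (difference of the log2 fold changes -1.57, SE 0.35, adjusted p = 0.0014), and 6 of the 8 fits without 1 library lost the call, with adjusted p up to 0.059 without Ctrli_TAM replicate 1. The ribosomal pseudogene RPL39P3 and NME1-NME2, with effects of -2.10 and -1.72 in the same measure, were high in Ctrli_ETH only, of these 8 libraries (RPL39P3 at 397 and 406, NME1-NME2 at 4403 and 3577), where the rRNA share was 1.01 and 1.38%, against 0.868 and 0.918% in Ctrli_TAM. RPL39P3 lost its call without Ctrli_ETH replicate 1 (adjusted p = 0.023) or 2 (0.025) or YAPi_TAM replicate 2 (0.026). Cornified envelope genes, 9 of which rose in ethanol, differed between the conditions in 1 of 17 cases, and mitosis genes in none of 40 by DESeq2 or edgeR, with 0 and 2 of them at an unadjusted p under 0.05. Of all genes only 0.498% were called by DESeq2 and 0.097% by edgeR, so lists of this size would hold few calls at that share. The mitosis estimates were above 0 for 37 of the 40, as given above.

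**Figure D5:**
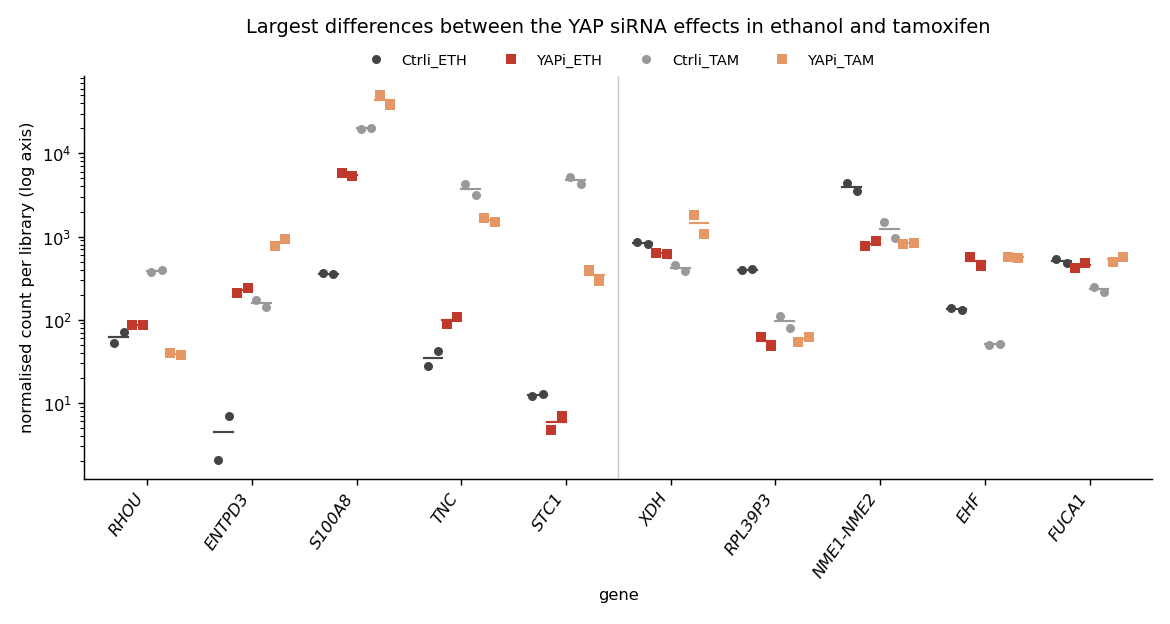
Normalised counts (log axis) of 10 genes in Ctrli and YAPi libraries under ETH and TAM, 1 point per library. Under TAM the YAPi points of RHOU, TNC and STC1 lie below the Ctrli points and those of XDH and FUCA1 above them, and S100A8 and ENTPD3 are higher in YAPi under both treatments.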

How the data were processed

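RNA of MCF-10A ER-Src cells was sequenced from total RNA with a TruSeq Ribo Profile kit. According to the study's methods, the authors trimmed reads, aligned them with STAR to the GENCODE 30 transcriptome (hg38, up to 20 alignments kept) and quantified genes with RSEM. Tool versions and the strand setting are not given in the sources used here, so overlapping and antisense genes may share reads, and RSEM divides multi-mapped reads by probability. The authors deposited per-gene expected counts, which are not normalized, and TPM, which are scaled by effective length and library.

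Here expected counts of Ensembl genes were rounded and tested with DESeq2 1.42.0 (R 4.3.3, default size factors and filtering, Wald test, two-sided, Benjamini-Hochberg adjusted p under 0.01) in YAPi_ETH against Ctrli_ETH, in YAPi_ETH against TAZi_ETH, and as the interaction of siRNA and treatment over 8 libraries. The tests were checked on simulated counts. Groups came from sample titles. Members and gene lists (36, with 7 marker lists) were chosen with earlier results of these data known, and some members were picked for these cells, so list counts are descriptions without a test. Named genes were YAP1 and WWTR1, YAP pathway members, up to 4 called members per other list with a mean normalised count of at least 100, and the 15 (for the other comparisons 5) largest called rises and falls at that level with a gene symbol. A few genes that the rule names are not reported here. The protein-coding falls and the HNRNP and histone families were added after the values were seen. Symbols came from GENCODE 44, which matched 56558 of 60725 identifiers (93.1%). Alternatives were edgeR 4.0.16, TMM factors, a mean count filter of 10, no independent filtering, effective-length offsets, a fit over all 10 ER-Src groups, a replicate block, the other 3 ETH knockdowns as reference, and leaving out each library, where the lone library is assumed to vary like the other group. Replicates of Ctrli_ETH and YAPi_ETH differed by more than counting noise (SD of the log2 ratio 0.242 and 0.291). Promoter sequences were RefSeq's (GRCh38.p14).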

Additional observations from a re-analysis of the deposited data

Results flagged for a closer look

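The effect of the YAP knockdown differed between ethanol and tamoxifen for 78 genes by the DESeq2 test of the interaction, which is what singled out the following genes. The difference of the log2 fold changes (ethanol minus tamoxifen) was 3.78 for RHOU, 3.28 for ENTPD3, 2.81 for S100A8, 2.73 for TNC and 2.64 for STC1, and it was −2.19 for XDH, −2.10 for RPL39P3, −1.72 for NME1-NME2, −1.57 for EHF and −1.37 for FUCA1. In edgeR, RHOU, S100A8 and TNC kept their calls, while ENTPD3 (adjusted p = 0.022), STC1 (0.2), XDH (0.022), RPL39P3 (0.019), NME1-NME2 (0.03), EHF (0.028) and FUCA1 (0.015) did not. In a fit over all ER-Src groups S100A8 (adjusted p = 0.011), RPL39P3 (1) and NME1-NME2 (0.15) lost theirs. RHOU was called under all 15 alternatives. RPL39P3 and NME1-NME2 were high in the 2 Ctrli_ETH libraries, where rRNA genes took 1.01 and 1.38% of counts (0.868 and 0.918% in Ctrli_TAM), and the part of that share was not tested.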

How the results depend on the processing

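With 2 libraries per group, calls depended strongly on each library. Leaving out 1 library gave from 489 to 971 called genes in YAPi_ETH against Ctrli_ETH (1713 with all), from 143 to 205 against TAZi_ETH (598) and from 48 to 79 for the interaction (78). For lists, the called members ranged from 4 to 35 in mitosis, 4 to 16 in DNA replication, 5 to 9 in cholesterol synthesis, 5 to 8 in the cornified envelope, 6 to 6 in desmosomes and tight junctions and 4 to 9 in fatty acid synthesis. These fits hold fewer samples. With the other ETH knockdowns as the reference, 539 genes were called (320 higher, 219 lower, 59.4% higher against 44.1%), with 0 of the mitosis list, 0 of DNA replication and 4 of desmosomes and tight junctions called in their main direction, and NME1-NME2 (0.25) and WWTR1 (0.45) changed sign, the latter because this reference holds the TAZi_ETH libraries, in which WWTR1 was knocked down. The WWTR1 estimate ranged from −0.13 to 0.033 when 1 library was left out, above 0 without YAPi_ETH replicate 2 (0.033) or Ctrli_ETH replicate 2 (0.02), and WWTR1 was called in no fit. edgeR called 182 genes against TAZi_ETH and 15 in the interaction (14 higher, or 93.3% against 64.1%), where 1578 had an unadjusted p under 0.05, and a fit over all ER-Src groups called 48 in the interaction. The cause of the other differences was not tested.

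Sample titles give each replicate only a number. Whether equal numbers mark a shared culture or batch is not stated, and only 2 pairs per comparison exist. Deviations from the group means correlated at 0.177 between YAPi_ETH and Ctrli_ETH and at 0.506 between YAPi_ETH and TAZi_ETH. Among the libraries of the interaction they correlated at 0.405 between YAPi_ETH and YAPi_TAM, and at no more than 0.18 between the other groups. With the replicate block 1122 genes were called in YAPi_ETH against Ctrli_ETH, 517 against TAZi_ETH and 98 in the interaction. Other settings moved the main count to between 1448 and 1897, and no setting moved the median of all genes by 0.1. Which genes were called changed more than these counts. Of the 1713 main calls, edgeR kept 1374 in the same direction, the fit over all ER-Src groups 1269 and effective-length offsets 1202. The offsets reversed the sign of 21 of the main calls. Of all values checked outside the fits without 1 library, the headline ones not counted, 726 kept their direction and side of the threshold, 21 lost the call, 46 moved and 2 reversed. Of the headline values 62 stayed the same and 8 moved.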

Other observations

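CD24, a surface glycoprotein used to sort mammary cells, belonged to no list and to no naming rule and is given because its rise was seen in the values. It was at 1072 and 935 in Ctrli_ETH and 4761 and 5431 in YAPi_ETH (log2 fold change 2.33, SE 0.12, adjusted p = 1.7e-74, DESeq2), and it was called under all 12 alternatives. TAZi_ETH held 1595 and 1898 and JUNBi_ETH 5266 and 4178, so the JUNB knockdown was about as high. DCN, one of 7 fibroblast markers, was at 1259.7 and 1443 against 5129 and 4769 (log2 fold change 1.87, SE 0.12, adjusted p = 5.1e-52), with TAZi_ETH at 3984 and 3456. Of the other 6, LUM was at 33.6 and 26.5 against 49.6 and 51.3 (log2 fold change 0.74) and COL1A1 at 8.14 and 5.76 against 24.2 and 25.6 (1.83), neither of which passed, and COL1A2, COL3A1, PDGFRA and PDGFRB were below 6 in all 4 libraries and were not tested. Which cells these transcripts came from was not tested.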
